A study of Mus musculus with 9 samples.

Results

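This account covers 9 interferon-stimulated genes, chosen by name: Ifi27, Ifi27l2a, Ifi35, Ifi44, Rtp4, Xaf1, Lgals3bp, Epsti1 and Nmi. All 9 were matched by Ensembl identifier among the 54752 genes of the deposited count table, and 7 of them had enough reads to enter the test of 17931 genes. B16F10 mouse melanoma cells were used, cultured in DMEM plus 10% serum, and the labels name no treatment. RNA was sequenced from 9 libraries in 3 groups of 3. GFPsg carried a guide named for GFP and was given as wild type, while Tada2bsg1 (guide 1) and Tada2bsg2 (guide 2) carried guides against Tada2b and were given as its knockout. The Tada2b protein belongs to the acetyltransferase module of the SAGA coactivator. The labels do not say whether replicates were separate cultures or whether cells were clones, so p-values measure only the spread between these libraries, which may be technical.

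Interferon-stimulated genes are switched on when type I, II or III interferons bind their receptors and JAK kinases activate STAT proteins. STAT proteins and IRF9 form a complex that binds the interferon-stimulated response element, and pairs of STAT proteins bind the gamma-activated sequence. Many of the induced proteins limit viral replication or promote death of infected cells. Tumour cells can show such expression without infection, through their own nucleic acid sensors or interferon made in the tumour.

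The 7 tested genes were higher in the libraries labelled knockout, by 1.58-fold for Nmi to 15.1-fold for Ifi44. In all 7, each of the 6 labelled knockout libraries lay above each of the 3 GFPsg libraries, a pattern found in 21.8% of tested genes. edgeR called 7 of 7 higher in the knockout contrast (the mean of both guides against GFPsg), where 24.7% of tested genes were called higher. Higher genes were 48.4% of all calls, and 63.3% with library size alone. With guide 1 alone 7 were called higher (23.8% of tested genes) and with guide 2 alone 7 (22.1%). These comparisons share the GFPsg libraries. The median log2 change of the 7 was 2.23, beside −0.02 for all tested genes, and 6 of the 7 rose at least 2-fold, as 6.88% of tested genes did. These genes are known interferon targets and were listed with results of these data in view, so that their shared direction is not independent evidence. Ifi27l2a and Epsti1 did not pass the filter on low counts.

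**Figure D1:**
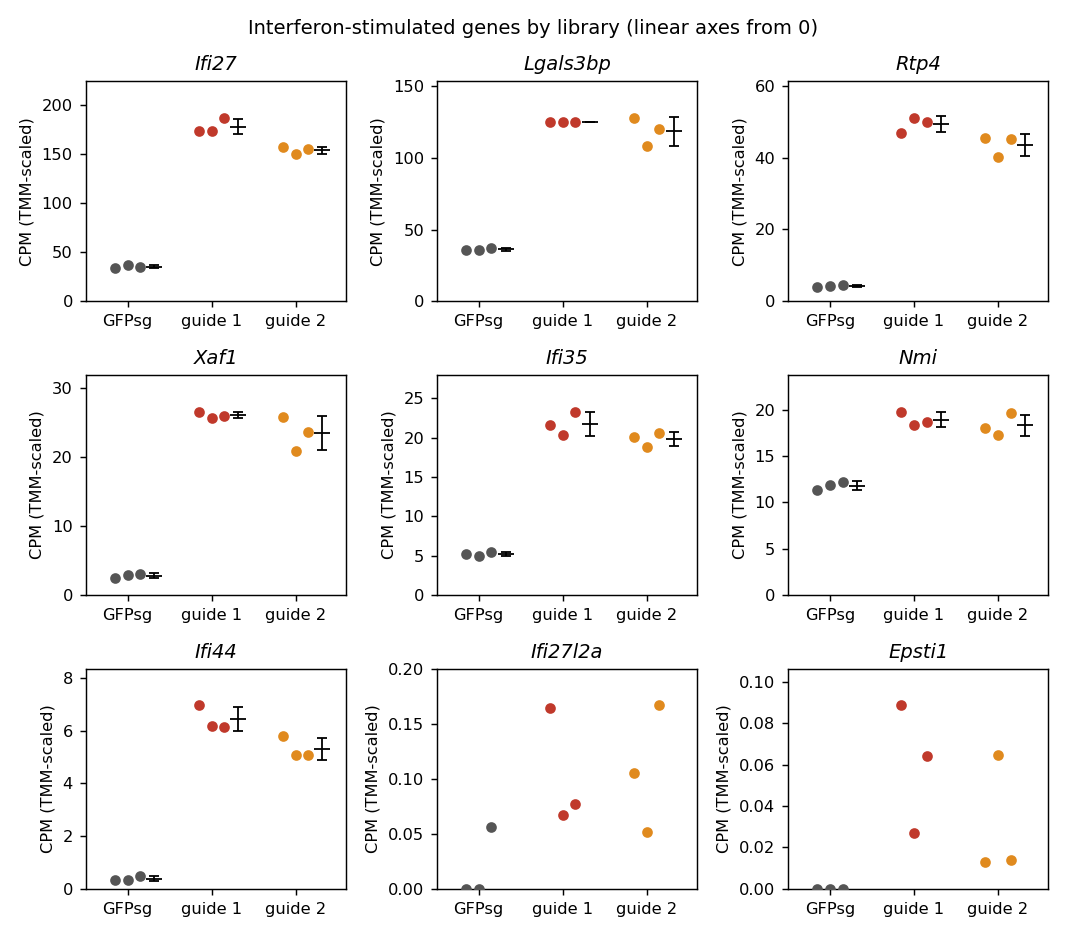
CPM (counts scaled to a library of 1000000) of each of the 9 genes by library on linear axes that start at 0, in GFPsg (grey), guide 1 (red) and guide 2 (orange), with mean ± SD (n = 3) beside the points for the 7 tested genes. In the 7 tested genes all labelled knockout libraries lie above the GFPsg libraries, and Ifi27l2a and Epsti1 stay below 0.2 CPM in every library.

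The promoters are shown because the members rose together and because the response elements named above lie close to the start site in many interferon-stimulated genes. RefSeq promoter windows of build GRCm38.p6, from 250 bases before to 50 bases after the start site, were on hand for 6 of the 9 genes, and Ifi27, Ifi27l2a and Rtp4 were without one. The core of the response element was searched on both strands as GAAA, NN and GAAA in a row. It was in 0 of the 6 windows and in 3.44% of all 32851 promoter windows, and the stricter GAAAC, N and GAAA was in 0 of 6 and 0.685%. Only exact matches were counted, so an element that differs by 1 base would be missed. The gamma-activated core TTCNNNGAA was in 1 of 6, that of Ifi35, and in 8.30% of all windows. The shorter core AANNGAAA, which IRF proteins bind, was tried after these sequences had been read, and it was in 6 of 6 windows and in 23.9% of all. Every match to the response element core is also a match to AANNGAAA. Within 60 bases before to 30 after the start, limits that were also set after the matches were seen, it was in 4 of 6 windows and 7.09% of all. Capitals mark AANNGAAA or its reverse complement in the stretches below, each written 5′ to 3′ on the strand of its gene:
Ifi44, chr3:151749941-151750030, minus strand: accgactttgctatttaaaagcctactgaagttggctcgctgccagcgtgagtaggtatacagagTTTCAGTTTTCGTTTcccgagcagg
Xaf1, chr11:72301539-72301628, plus strand: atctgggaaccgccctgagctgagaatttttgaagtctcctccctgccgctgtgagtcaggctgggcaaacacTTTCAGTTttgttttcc
Xaf1, chr11:72301629-72301658, plus strand: tgtgtgcaaagAAACGAAActccacagaag
Lgals3bp, chr11:118401960-118401989, minus strand: tcatgtgttttctgaaAATCGAAActaggt
Ifi35, chr11:101448412-101448441, plus strand: agcagaattcacagAAATGAAAgtggaagt
Nmi, chr2:51973364-51973393, minus strand: atttttctagcAAAGGAAAagttcacatct
Epsti1, chr14:77903989-77904018, plus strand: tTTTCTGTTccattgcttttagttattgtc
The matches of Ifi44, Xaf1, Lgals3bp and Ifi35 begin between −55 and 15, counted from the RefSeq start. In Ifi44 a pair of matches overlaps by 1 base, and a further match, outside the stretch printed, begins at −9. That of Nmi begins at −174 and that of Epsti1 at −249. GENCODE M21 places the start of Lgals3bp, Nmi, Ifi44 and Ifi35 further upstream than RefSeq, so that the distances depend on the annotation. A match is a description of letters and not a measured binding site.

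**Figure D2:**
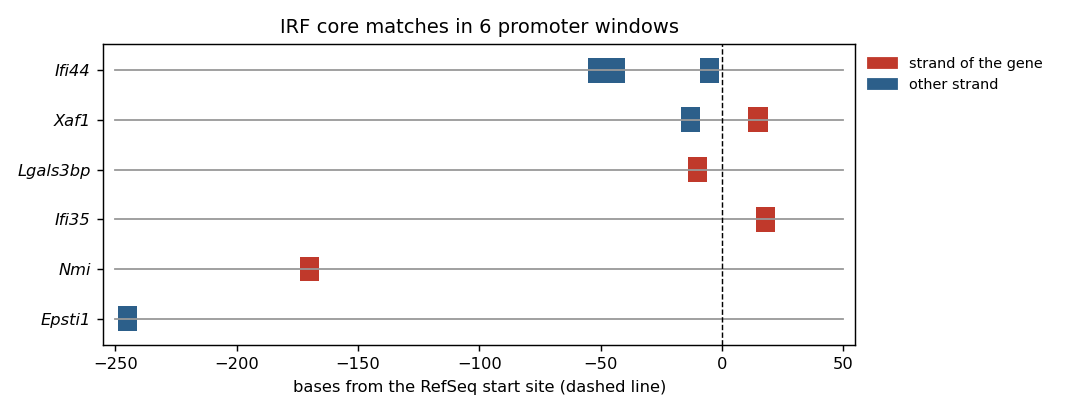
Positions of AANNGAAA in the 6 promoter windows, in bases from the RefSeq start site (dashed line), coloured by strand. Those of Ifi44, Xaf1, Lgals3bp and Ifi35 lie within 60 bases of the start, and those of Nmi and Epsti1 begin at −174 and −249.

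The libraries held 70.6 to 76.9 M counts (M, 1000000). Tada2b was counted at 28.0, 25.2 and 26.6 CPM in GFPsg, at 32.2, 33.3 and 32.7 CPM with guide 1 and at 28.9, 26.0 and 25.9 CPM with guide 2. Both guides together differed from GFPsg by 0.16 ± 0.05 on the log2 scale (SE, edgeR adjusted p = 0.0101), a difference not called without GFPsg replicate 2 (adjusted p = 0.0534) or with both guides as 1 group (0.101), over a range from 0.00124 to 0.101. With guide 1 alone the difference was 0.30 (adjusted p = 0.000213) and with guide 2 alone 0.02 (0.806), and guide 2 was below guide 1 (log2 −0.28, adjusted p = 0.00671). Its mRNA was thus not lower in the libraries labelled knockout, and counts summed over a gene do not show an edited site, so the label is not checked by them. Of 8 melanocyte markers 8 fell, with summed levels of 21000 to 21800 CPM in GFPsg, 5130 to 5370 with guide 1 and 7260 to 7500 with guide 2. Leukocytes, in which several of the 9 genes are high, had 10 markers listed. Ptprc, the marker of leukocytes in general, and Itgam, of myeloid cells, had 0 reads in all 9 libraries, and 4 others had 0 to 8 reads per library. Of the 4 tested markers Cd68 (log2 1.09), Lyz2 (1.08) and Cx3cr1 (2.52) rose and Fcer1g (−1.19) fell, while the sum over the list ran from 3.64 to 3.94 CPM in GFPsg, from 7.00 to 7.40 with guide 1 and from 6.19 to 6.47 with guide 2. Of 10 fibroblast and endothelial markers 5 were tested, of which 3 rose and 1 fell. Of all tested genes 24.7% were called higher and 26.3% lower in the knockout contrast. Col1a1 (4.87), Col1a2 (1.68) and Pdgfrb (1.45) rose, Vwf (−2.11) fell and Pdgfra (−0.04) was not called. The untested markers had few reads. Group sums in GFPsg, guide 1 and guide 2 were 2, 0 and 0 for Dcn and 8, 0 and 2 for Lum. Those of Pecam1 were 14, 24 and 23, of Kdr 4, 3 and 0 and of Cdh5 0, 1 and 0. The sum over all 10 was 16.2 to 18.9 CPM in GFPsg. It was 245 to 256 CPM with guide 1 and 210 to 244 CPM with guide 2. Col1a1 made up most of that sum with the guides (means of 225 and 202 CPM) but not in GFPsg (7.27 CPM). In bulk RNA more cells of a type and more RNA per cell cannot be told apart, and the part of these markers in the results was not tested.

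Ifi27 and Xaf1 are linked to cell death. Ifi27 encodes a small hydrophobic protein of mitochondria and the nuclear envelope that can promote apoptosis (ENSMUSG00000064215, chromosome 12, 103434211 to 103440239, plus strand of mm10). It was at 33.7, 37.1 and 35.3 CPM in GFPsg, at 174, 173 and 187 CPM with guide 1 and at 157, 150 and 155 CPM with guide 2. The 3 groups did not overlap, and guide 1 was the highest. The change in the knockout contrast was 4.69-fold, or 2.23 ± 0.04 on the log2 scale (SE; edgeR adjusted p = 1.09e-16). Xaf1 encodes a zinc finger protein that counters the caspase inhibitor XIAP (ENSMUSG00000040483, chromosome 11, 72301629 to 72313733, plus strand). Its level was 2.47, 2.92 and 3.10 CPM in GFPsg, 26.6, 25.7 and 26.0 CPM with guide 1 and 25.8, 20.9 and 23.7 CPM with guide 2. The guides overlapped, and neither came near the control range. The change was 8.75-fold (log2 3.13 ± 0.09, edgeR adjusted p = 5.66e-15). Xiap itself, which was named after its value was seen, went from 108 ± 3.10 CPM to 127 ± 1.39 and 127 ± 3.39 CPM (mean ± SD, n = 3), a log2 change of 0.23.

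Ifi27l2a is a relative of Ifi27 that lies 1928 bases from it on the opposite strand (ENSMUSG00000079017, chromosome 12, 103442167 to 103443680). It had 0, 0 and 4 reads in the GFPsg libraries, 13, 5 and 6 with guide 1 and 8, 4 and 12 with guide 2. The control library with 4 reads overlapped the lowest labelled knockout library on the read scale. Over each group 24 reads stood against 4, a ratio of 5.83 with guide 1 (exact binomial 95% interval 2.00 to 23.1) and 6.00 with guide 2 (2.06 to 23.8), intervals that cover counting error only. Without the filter on low counts edgeR called it higher (adjusted p = 0.0102 in the knockout contrast), in a fit where 14.2% of 32135 genes were called higher. Its level stayed at or under 0.167 CPM while its neighbour Ifi27 reached 187 CPM. Reads that the close relatives share may have been dropped in counting, so the low count of Ifi27l2a is uncertain.

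Ifi35 and Nmi encode relatives that bind each other in the cytoplasm of interferon-treated cells, and Nmi also binds STAT and Myc proteins. Ifi35 (ENSMUSG00000010358, chromosome 11, 101448407 to 101458698, plus strand) was at 5.17, 4.92 and 5.50 CPM in GFPsg, at 21.6, 20.3 and 23.3 CPM with guide 1 and at 20.1, 18.8 and 20.6 CPM with guide 2. It changed 4.00-fold (log2 2.00 ± 0.07, edgeR adjusted p = 8.03e-14). Nmi (ENSMUSG00000026946, chromosome 2, 51948487 to 51973494, minus strand) moved least of the 7 tested genes. It stood at 11.3, 11.9 and 12.2 CPM in GFPsg, at 19.8, 18.3 and 18.7 CPM with guide 1 and at 18.0, 17.3 and 19.6 CPM with guide 2, a 1.58-fold change (log2 0.66 ± 0.06, edgeR adjusted p = 2.94e-08). For both genes the guides overlapped and the control libraries lay apart. In GFPsg the CPM of Nmi was above that of Ifi35 in every library. With guide 1 Ifi35 was above Nmi in every library. Counts per kilobase, which allow for gene length, gave the same reversal (3.01 ± 0.17 for Ifi35 and 5.89 ± 0.25 for Nmi in GFPsg, 12.6 ± 0.88 and 9.46 ± 0.38 with guide 1).

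Ifi44 encodes a cytoplasmic protein with antiproliferative activity (ENSMUSG00000028037, chromosome 3, 151730922 to 151749960, minus strand). It had the largest change of the 7 and was the lowest of them in the controls, with 0.324, 0.330 and 0.503 CPM in GFPsg, or 24, 22 and 36 reads. With guide 1 it reached 6.96, 6.19 and 6.14 CPM, and with guide 2 it reached 5.80, 5.07 and 5.08 CPM. All guide 1 libraries lay above all guide 2 libraries, and GFPsg replicate 3 stood above the other controls. The change was 15.1-fold (log2 3.91 ± 0.14, edgeR adjusted p = 2.99e-13), which ranked 132 among the 17931 tested genes in order of log2 change. Its relative Ifi44l, 8777 bases away on the same strand, had 0 reads in GFPsg, 10 with guide 1 and 3 with guide 2.

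Rtp4 encodes a chaperone that carries some G protein-coupled receptors, opioid receptors among them, to the cell surface (ENSMUSG00000033355, chromosome 16, 23520291 to 23614222, plus strand). It was at 3.98, 4.20 and 4.59 CPM in GFPsg, at 46.9, 51.1 and 49.9 CPM with guide 1 and at 45.5, 40.1 and 45.2 CPM with guide 2. The 3 groups did not overlap. Its change was 10.9-fold (log2 3.45 ± 0.07, edgeR adjusted p = 8.75e-17) and ranked 208. Its relatives Rtp1 and Rtp2 had 0 reads in all 9 libraries, and Rtp3 had 1 in each group. The long Rtp4 locus overlaps the complement protease gene Masp1 on the opposite strand, with no shared exonic base. It also overlaps the transcript gene Gm45338, which shares 296 exonic bases with Rtp4 on the same strand. Masp1 rose by 1.43 and Gm45338 by 1.26 on the log2 scale, both less than Rtp4. HTSeq in its default mode discards reads that fit several genes, and the mode used is not given in the sources used here, so the counts of both are uncertain over the shared bases.

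Lgals3bp encodes a secreted glycoprotein that binds galectin-3, integrins and matrix proteins (ENSMUSG00000033880, chromosome 11, 118392751 to 118402092, minus strand). It was at 35.8, 35.8 and 37.5 CPM in GFPsg, at 125, 125 and 125 CPM with guide 1 and at 128, 108 and 120 CPM with guide 2. The guide 1 libraries were nearly equal, and guide 2 spread around them. The change was 3.35-fold (log2 1.74 ± 0.05, edgeR adjusted p = 7.93e-15). Its ligand gene Lgals3, also named after its value was seen, went from 162 ± 1.31 CPM to 206 ± 2.03 and 203 ± 7.58 CPM (mean ± SD, n = 3), a log2 change of 0.34.

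Epsti1, first described in epithelial cells in contact with stroma (ENSMUSG00000022014, chromosome 14, 77904239 to 78002657, plus strand), had 0 reads in each GFPsg library. It had 7, 2 and 5 reads with guide 1 and 1, 5 and 1 with guide 2. A floor of 3 reads over the control group was set. By group totals Epsti1 stood at 4.53-fold that floor with guide 1 and 2.33-fold with guide 2. The guide reads were taken as counted, with no allowance for their counting error, so these are not lower bounds on its change. Without the filter on low counts edgeR called it higher in the knockout contrast (adjusted p = 0.0120) and with guide 1 (adjusted p = 0.00652), but not with guide 2 (adjusted p = 0.0564), where 13.7% and 12.6% of genes were called higher with guide 1 and guide 2. No more than 7 reads in over 70 M were found in any library, so that the size of its change was not measurable at this depth.

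**Figure D3:**
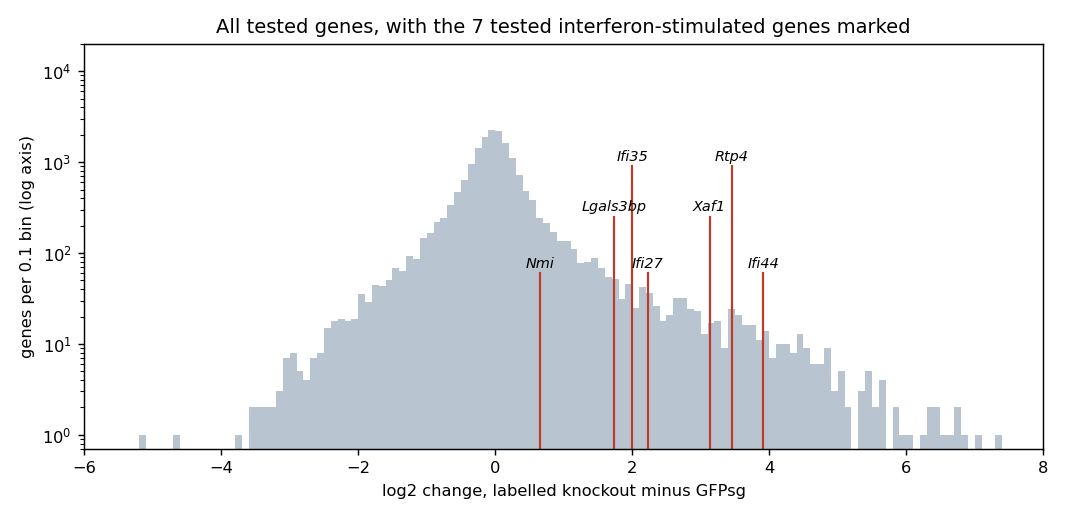
Number of tested genes by log2 change in the knockout contrast, in bins 0.1 wide on a log axis, with red lines at the 7 tested interferon-stimulated genes. Nmi (0.66, rank 1914 of 17931) lies below the 95th percentile of all tested genes, which was 1.4. The other 6, from Lgals3bp (1.74) to Ifi44 (3.91), lie above that percentile.

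Levels per length put the genes in a different order in each state. In GFPsg, Ifi27 led with 24.1 ± 1.2 CPM per kb of exon, before Lgals3bp (12.8 ± 0.35), Nmi, Ifi35, Rtp4 (2.00 ± 0.14), Xaf1 (0.604 ± 0.07) and Ifi44 (0.0629 ± 0.02; mean ± SD, n = 3). With guide 1 the order was Ifi27 (121 ± 5.50), Lgals3bp (43.9 ± 0.10), Rtp4 (23.1 ± 1.01), Ifi35, Nmi, Xaf1 (5.57 ± 0.10) and Ifi44 (1.05 ± 0.07), and guide 2 gave the same order. Rtp4 thus moved from the fifth place to the third, and Nmi from the third to the fifth. Neighbours in these orders differed by more than their SDs. With guide 2, Ifi35 and Nmi stood at 11.5 ± 0.54 and 9.14 ± 0.58, but at 14.6 and 14.2 when the longest transcript gave the length, so that their order there rests on the length used. Summed over all 9 genes, the libraries of GFPsg held 92.7 to 98.7 CPM, those of guide 1 held 420 to 436 and those of guide 2 held 360 to 401. Ifi27 and Lgals3bp held 73.7% to 75.0% of that sum in GFPsg and 70.7% to 71.6% in the labelled knockout libraries. The 3 tested genes with the lowest CPM in GFPsg, Ifi44, Xaf1 and Rtp4, had the 3 largest changes. The change is measured from that same GFPsg level, so this link is partly built in.

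**Figure D4:**
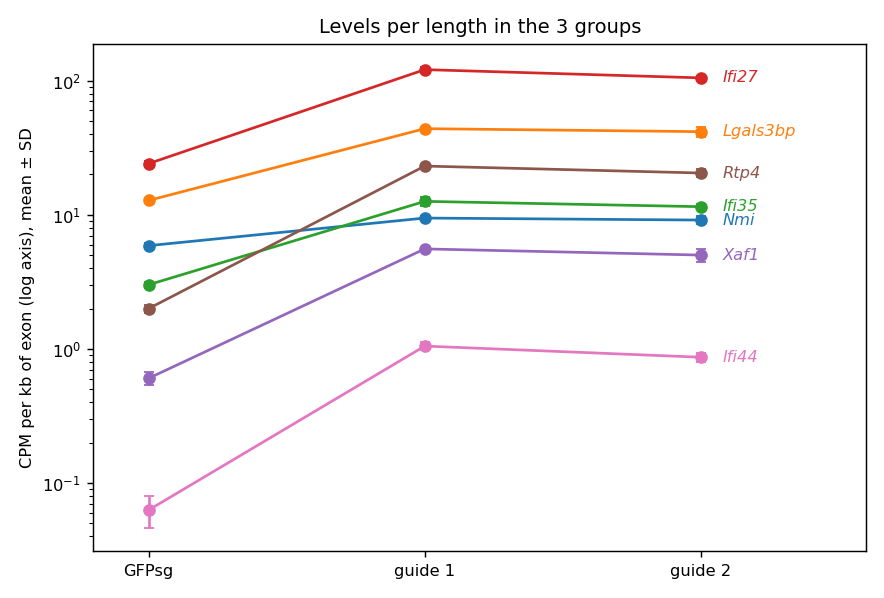
CPM per kb of exon of the 7 tested genes on a log axis, as mean ± SD over 3 libraries in each group. Ifi27 is the highest and Ifi44 the lowest in every group, and the lines of Rtp4 and Nmi cross between GFPsg (2.00 and 5.89) and guide 1 (23.1 and 9.46).

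The guides were then set against each other. All 7 tested genes were lower with guide 2 than with guide 1, by 0.05 (Nmi) to 0.28 (Ifi44) on the log2 scale, with a median of −0.15 beside 0.00 for all tested genes. Only Ifi27 was called by edgeR, at −0.21 ± 0.04 (SE; adjusted p = 0.0119), in a contrast where 1.02% of tested genes were called lower and 2.66% higher. The unadjusted p was under 0.05 for 3 of 7, Ifi27, Rtp4 and Ifi44, and in these 3 each guide 1 library lay above each guide 2 library, as in 10.7% of tested genes. For the other 6 the SE ran from 0.05 (Lgals3bp) to 0.11 (Ifi44) and the adjusted p from 0.111 (Rtp4) to 0.732 (Nmi), which does not show that the guides were alike. The call of Ifi27 was lost without guide 1 replicate 3 (−0.17, edgeR adjusted p = 0.108) and without guide 2 replicate 2 (−0.19, adjusted p = 0.0826). The 17 alternatives gave it adjusted p-values between 0.000464 and 0.108. For Rtp4 (−0.18) the adjusted p fell to 0.0323 with the replicate number as a block and to 0.0428 with no filter on low counts, over a range up to 0.366.

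**Figure D5:**
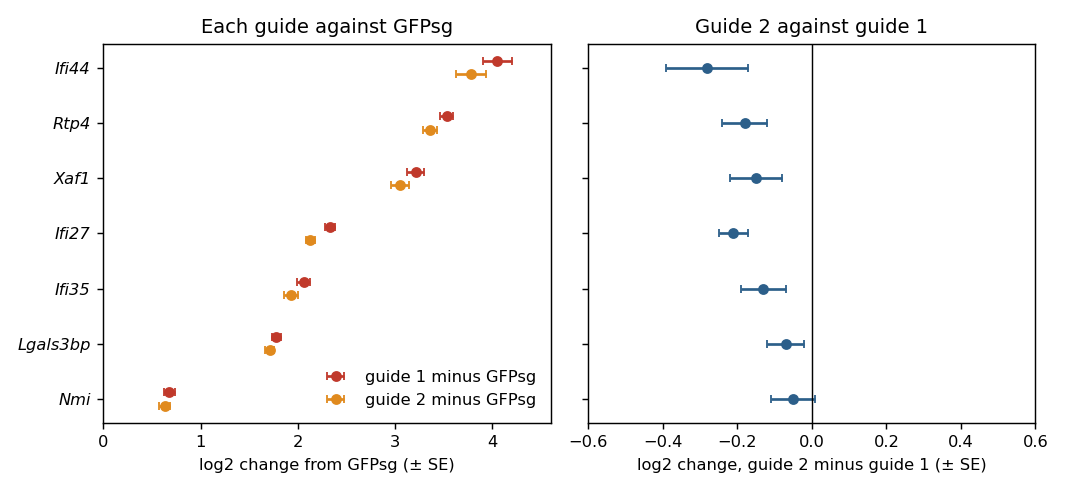
Log2 changes with SE of the 7 tested genes, each guide against GFPsg on the left and guide 2 against guide 1 on the right. On the left all values lie between 0.63 and 4.05, and on the right all 7 lie below 0, from −0.28 to −0.05.

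The 7 genes also shared a pattern within groups. Guide 2 replicate 2 was the lowest guide 2 library in 7 of 7, and in 28.7% of all tested genes. It was the lowest in 32 of 54 tested genes of a list of other interferon targets. GFPsg replicate 1 was the lowest control in 6 of 7, in 32 of those 54 and in 36.7% of all tested genes, the exception being Ifi35, for which it was replicate 2. With guide 1 no library was lowest in more than 4 of 7. Some of these ranks rest on near ties. Ifi44 was at 5.07 and 5.08 CPM in guide 2 replicates 2 and 3, and at 0.324 and 0.330 CPM in GFPsg replicates 1 and 2. Lgals3bp was at 35.8 CPM in both of these controls. Without guide 2 replicate 2, no member was called between the guides. The change from GFPsg with guide 2 kept its direction and its call in all 7 under each alternative run, with log2 values from 0.60 (Nmi) to 4.03 (Ifi44).

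The rest of the pathway was read from lists of its ligands, receptors, transducers and targets. Of 20 interferon ligand genes 12 had 0 reads in every library and none passed the filter, so that their summed level was at most 0.250 CPM. Ifnb1, which encodes interferon beta, had 1, 0 and 0 reads in GFPsg, 2, 8 and 4 with guide 1 and 15, 1 and 11 with guide 2. By group totals its ratio was 13.6 with guide 1 (exact binomial 95% interval 2.07 to 575) and 27.0 with guide 2 (4.45 to 1110). These cover counting error only and rest on a single control read, in GFPsg replicate 1, without which there is no ratio. In the fit without a filter Ifnb1 was called higher (edgeR adjusted p = 0.00174 in the knockout contrast), as were 14.2% of 32135 genes. The Ifna genes are near-identical copies and their single counts are uncertain.

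In the knockout contrast 24.7% of all tested genes were called higher and 26.3% lower, beside which the counts below stand. Receptor genes went both ways. Of 6, Il10rb (−1.05), Ifngr2 (−0.68) and Ifnar1 (−0.38) fell, Ifngr1 rose (0.34) and Ifnar2 (−0.09) and Ifnlr1 (−0.31) were not called. Of 12 tested JAK-STAT transducer and IRF genes 9 rose, Jak2 (−0.16) and Irf3 (−0.11) fell and Tyk2 (−0.06) was not called, with a median of 1.24. Irf9, whose protein binds DNA in the complex with STAT proteins, went from 6.74 ± 0.72 CPM to 47.1 ± 2.23 and 44.9 ± 1.10 CPM (mean ± SD, n = 3; log2 2.77), Irf1 rose by 1.49 and Stat3 by 1.39. The small falls of Irf3 and Jak2 were not called with library size alone (−0.03 and −0.08), and that of Irf3 was lost under most alternatives. Of 10 negative regulators 8 rose and 2 were not called, with a median of 0.28, led by Usp18 (3.9), a protease that also blocks the interferon receptor, Socs3 (1.64), the phosphatase gene Ptpn11 (0.29) and Socs1 (1.11).

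Among 54 tested genes of the list of other interferon targets 50 rose, 2 fell and 2 were not called, beside 24.7% and 26.3% of all tested genes called higher and lower, with a median of 1.89. Those with the lowest p were Ifitm3 (1.93), Isg15 (2.95), the RNA sensor gene Ifih1 (2.20) and Ifit1 (2.34). Casp1 (−3.01, from 0.452 ± 0.13 CPM in GFPsg) and Ifitm2 (−0.15) fell, the latter not called with library size alone or without GFPsg replicate 2 or 3. Of 11 partner genes of the members 6 rose, 3 fell and 2 were not called. Trim21, a ubiquitin ligase that acts on Nmi and Ifi35, rose by 1.87 and the integrin gene Itgb1 by 0.63. Myc (−0.74) and Nr4a1 (−0.96), whose proteins bind Nmi and Ifi27, fell, as did Cd63 (−0.30).

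Genes next to the members were examined for a shift of the surrounding region. Of the 16 nearest protein-coding neighbours outside the 9 genes 8 passed the filter. Of these 3 rose, 2 fell and 3 were not called, with a median of 0.09. Over all tested genes 24.7% were called higher and 26.3% lower. Ddx24 (0.64), Timp2 (0.60) and Rbm43 (0.27) rose, and Vat1 (−0.51), whose gene ends 47 bases from Ifi35, and Tnfaip6 (−0.68) fell. Dnajc15 (0.14), Rpl27 (−0.13) and Cant1 (0.03) were not called. Library size alone made the count higher 5 of 8. Fbxo39, 711 bases beyond Xaf1, had 0 reads in GFPsg, 1 with guide 1 and 3 with guide 2. The antisense gene Gm11626, which shares 290 exonic bases with Ifi35, had 2 to 8 reads per library.

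Genes with the most similar profiles were sought among 9674 others with a mean of at least 5 CPM over the 9 libraries, by the root mean square difference of log2 CPM over the 9 libraries after subtracting the GFPsg mean. The closest to Ifi27 were Cnn2 (0.0555) and Ifih1 (0.0663), to Ifi35 Steap2 (0.0682) and Trim25 (0.0839), and to Ifi44 Plscr2 (0.135) and Isg20 (0.149). Those closest to Rtp4 were Ddx60 (0.0754) and Chrnb1 (0.112), to Xaf1 Oas1a (0.0939) and S100a6 (0.144), to Lgals3bp Lgals9 (0.0543) and Pmp22 (0.0558), and to Nmi Dhx32 (0.0563) and Itgb1 (0.0579). Of these 14 genes 5 had means under 5 CPM in GFPsg and passed that floor through the labelled knockout libraries. In the list of other interferon targets were 5 of the 14, and the list held 42 of the 9674 candidates (0.434%) and 32 of the 404 candidates that were at least 2-fold higher in the knockout contrast (7.92%). Of the listed targets among the 14, Isg20, Ddx60 and Oas1a (means of 1.00, 1.13 and 3.23 CPM in GFPsg) passed the floor through the labelled knockout libraries. That list was chosen with earlier results of these data known. The measure mostly compares the size of the change from GFPsg, so that genes with similar changes come out as close. The overlap with the list is therefore not independent evidence. Among the members themselves the closest pair was Ifi27 and Ifi35 (0.206) and the most distant Ifi44 and Nmi (2.62).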

How the data were processed

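RNA from 9 B16F10 libraries was extracted with a QIAGEN RNeasy Plus Mini kit and prepared with a KAPA stranded mRNA kit, per the labels' protocols. The authors deposited raw read counts per Ensembl gene, whole numbers with no normalization. Tools named in the submitters' processing notes were bcl2fastq, HISAT2 and HTSeq, with build mm10. Versions, annotation release, strand setting and filters are not given in the sources used here, so reads of antisense or overlapping genes may be mixed. Symbols came from GENCODE M21, which matched 54723 identifiers.

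Counts were fitted once over all 3 groups with edgeR 4.0.16 (R 4.3.3): filterByExpr with a minimum count of 10 (17931 genes, 99.969% of counts), TMM scaling, quasi-likelihood F tests and Benjamini-Hochberg adjustment over all tested genes, called under 0.05. SEs are the change over the square root of F. CPM use TMM-scaled library sizes, and log2 CPM a prior count of 2. Lengths are the union of exons. Replicate pairs differed beyond sampling noise (chi-square per degree of freedom 7.12 to 22.7). Code was tested on simulated data. Alternatives used DESeq2 1.42.0, limma 3.58.1, other scalings and filters, a replicate block and single libraries left out.

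The members and lists were chosen with earlier results of these data known. Of each pathway list up to 4 genes with the lowest p are named. Any ligand, receptor or relative and the neighbours of each member could be named, with the 2 nearest profiles, and those without enough reads to test and the marker genes are mostly given as counts. Genes in counts of 5 or fewer were named after their values were seen. One pathway gene is not reported here.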

Additional observations from a re-analysis of the deposited data

Results flagged for a closer look

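Ifi27 differed between the guides. Its change from GFPsg was larger with guide 1 (2.33 ± 0.05) than with guide 2 (2.13 ± 0.05), and the tested difference was −0.21 on the log2 scale (edgeR adjusted p = 0.0119), lower in 3 of 3 guide 2 libraries than in any guide 1 library. The call was lost when guide 1 replicate 3 or guide 2 replicate 2 was left out.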

How the results depend on the processing

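In the knockout contrast and with each guide, the 7 tested members kept direction and call in all 17 alternatives. With no filter 9 of 9 were called higher in the knockout contrast, as were 14.2% of 32135 genes in that fit. The calls of Ifi27l2a and Epsti1 rest on few reads, and Epsti1 was not called there with guide 2 (edgeR adjusted p = 0.0564). Between the guides 2 members were called lower with no filter or with the replicate block, and 0 to 1 when 1 library was left out. Over all genes, guide 2 against guide 1 gave 477 higher and 183 lower calls. With the replicate block these were 979 and 726, with no filter 372 were lower and with DESeq2 283, and leaving out 1 library gave 259 to 572 higher and 76 to 248 lower; the cause was not tested. The replicate numbers were not taken as pairs in the main fit. Correlations of same-numbered deviations ran from −0.012 to 0.1, and those of other numbers from −0.088 to 0.041. Not every library was closest to its own number. Whether libraries of the same number were handled together was not tested. The share of knockout calls that were higher was 48.4%, but 63.3% with library size alone. The JAK-STAT and IRF list had 2 lower calls, but 1 with DESeq2 size factors, no filter, DESeq2, limma-voom or the guides as 1 group, 0 with library size alone and 1 to 2 with 1 library left out. Negative regulators had 0 to 1 lower calls with 1 library left out. Other interferon targets had 1 lower call with library size alone or at least 50 reads in 3 libraries, and 1 to 2 with 1 library left out. Neighbouring genes had 5 higher calls with library size alone. In place of 0 of 6 promoters with an exact match to the response element core, the gamma-activated core was in 1. The IRF core, chosen after the sequences were read, was in 6. Depth limits Epsti1, Ifi27l2a and the ligands, each at a few reads per library.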
